A study of Homo sapiens
Mus musculus with 2 samples.

Results

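The α-tubulin genes Tuba1a, Tuba1b, Tuba1c and Tuba4a, the β-tubulin genes Tubb2a, Tubb4b, Tubb5 and Tubb6 and the stathmin gene Stmn1 were followed across the cells of the mouse colonic epithelium. They were picked by name, as 9 of the 25504 genes listed in both tables, with earlier results of these data known. The choice was therefore not blind. Single cells were taken from the colonic epithelium of 1 untreated wild-type C57Bl6 mouse and split into 2 libraries, called replicates 1 and 2, which hold different cells of that animal and were sequenced in a single run. The epithelium was released by EDTA followed by enzymes, dead cells were depleted magnetically, and human K562 leukaemia cells, not analysed here, were mixed in. Cells were barcoded in droplets by inDrop and their RNA was amplified by CEL-Seq. There is 1 group and no second condition, so all comparisons are between classes of cells, and each p-value covers only the spread between 2 libraries of 1 animal, which may be technical.

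α- and β-tubulin form the heterodimer from which microtubules are built, and mammals express each subunit from several genes, called isotypes, whose proteins differ mostly in their short C-terminal tails. Dividing cells take their microtubules apart and rebuild them as a spindle, whereas polarised gut epithelial cells keep long parallel arrays that run between apex and base. Stathmin binds free tubulin dimers and promotes the shrinking of microtubules, and it is best known from proliferating cells. Tuba1b and Tubb5 encode widely expressed isotypes, Tuba1a and Tubb2a are best known from neurons, Tubb4b from many tissues including ciliated ones, and Tuba4a encodes an α-tubulin that lacks the terminal tyrosine of the others.

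Replicate 1 held 1738 barcodes and 8602490 UMIs (unique molecular identifiers, 1 for each captured RNA molecule), and replicate 2 held 664 barcodes and 3951918 UMIs. The median barcode had 4615.5 UMIs in replicate 1 and 4756.5 in replicate 2, and the median share of UMIs from mitochondrial genes was 4.43% and 8.91%. After the likely doublets were left out, 1651 and 630 barcodes formed 13 clusters, which were named from markers that do not include any of the 9 genes. Cycling-like barcodes (110 in replicate 1 and 52 in replicate 2) were led by Hmgb2, Top2a and Ube2c, and deep crypt secretory-like barcodes (245 and 67) by Reg4. Goblet-like barcodes (302 and 72) formed a cluster led by Clca1 and one led by Scin, and colonocyte-like barcodes (406 and 130) one led by Emp1 and one led by Fabp6. The crypt-like class (145 and 29) took its name from Cdca7, with a stem marker score of 1.12 against 1.11 in the cycling-like cluster, and its own cycling score was 1.09 (2.99 in the cycling-like cluster), so its name is weak. At resolution 2 its leading genes split, and a cluster of 134 barcodes led by Reg3b, Csrp2, Cftr and Tfrc was named cycling and one of 40 barcodes led by Cdca7 crypt. The lymphoid-like cluster (56 and 3) was led by Igha, Ccl5 and Gzma, and 12 barcodes were tuft-like. The remaining 4 clusters, with 378 and 274 barcodes, took no name.

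Over all 2402 barcodes, Tubb4b had 4504 UMIs, Tubb5 3886, Tuba1b 2852, Tuba1c 2439, Tuba4a 1410 and Stmn1 1254. These 6 genes carry the comparisons below. Tubb2a had 171 UMIs and Tuba1a 77. Tubb6, with 18 UMIs, was too rare to test, so that 8 of the 9 genes entered the tests. UMIs count molecules from their 3′ ends and are given as CPM, UMIs of the gene per 1000000 UMIs of a class, without division by gene length. The sequences of tubulin isotypes are similar in part, and how reads matching several genes were counted is not given in the sources used here. The split between Tuba1a, Tuba1b and Tuba1c and that between the β genes are therefore uncertain.

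Cycling-like barcodes held the highest level of 7 of the 9 genes among the 5 epithelial classes in both libraries. Tuba1a was not highest there, and Tubb6 was too rare to be ranked. In cycling-like barcodes Tuba1b had 1226 CPM in replicate 1 and 1002 CPM in replicate 2, followed by 370 and 251 CPM in crypt-like, 195 and 137 CPM in deep crypt secretory-like, 65.7 and 44.6 CPM in goblet-like and 41.0 and 26.4 CPM in colonocyte-like barcodes. No 2 classes overlapped over the libraries, and each library gave this same order. Tubb5 followed the same order, with 1756 and 1108 CPM in cycling-like barcodes, 685 and 446 CPM in crypt-like, 256 and 175 CPM in deep crypt secretory-like, 92.5 and 70.6 CPM in goblet-like and 34.7 and 27.5 CPM in colonocyte-like barcodes. For Tubb5, too, no 2 classes overlapped. Stmn1 stood at 548 and 405 CPM in cycling-like barcodes, 292 and 270 CPM in crypt-like, 55.6 and 40.0 CPM in deep crypt secretory-like, 7.91 and 18.6 CPM in goblet-like and 6.75 and 6.60 CPM in colonocyte-like barcodes. Its order was again the same, without overlap, and its levels in goblet-like and colonocyte-like barcodes rest on 10 to 15 UMIs per library or, in colonocyte-like barcodes of replicate 2, on 6.

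The other isotypes were spread more evenly. Tubb4b had 485 and 639 CPM in cycling-like barcodes, 185 and 209 CPM in crypt-like, 160 and 223 CPM in deep crypt secretory-like, 294 and 429 CPM in goblet-like and 422 and 531 CPM in colonocyte-like barcodes. Cycling-like and colonocyte-like barcodes overlapped, as did colonocyte-like and goblet-like, and crypt-like and deep crypt secretory-like barcodes shared the lowest levels. Tuba1c had 330 and 388 CPM in cycling-like barcodes, 135 and 172 CPM in crypt-like, 158 and 126 CPM in deep crypt secretory-like, 195 and 238 CPM in goblet-like and 175 and 185 CPM in colonocyte-like barcodes. Only the crypt-like and deep crypt secretory-like ranges of Tuba1c overlapped. Tuba4a was the flattest of the 6, with 140 and 151 CPM in cycling-like barcodes, 112 and 60.4 CPM in crypt-like, 104 and 94.8 CPM in deep crypt secretory-like, 121 and 119 CPM in goblet-like and 119 and 88.0 CPM in colonocyte-like barcodes. Below the cycling-like class its ranges overlapped in most pairs.

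**Figure D1:**
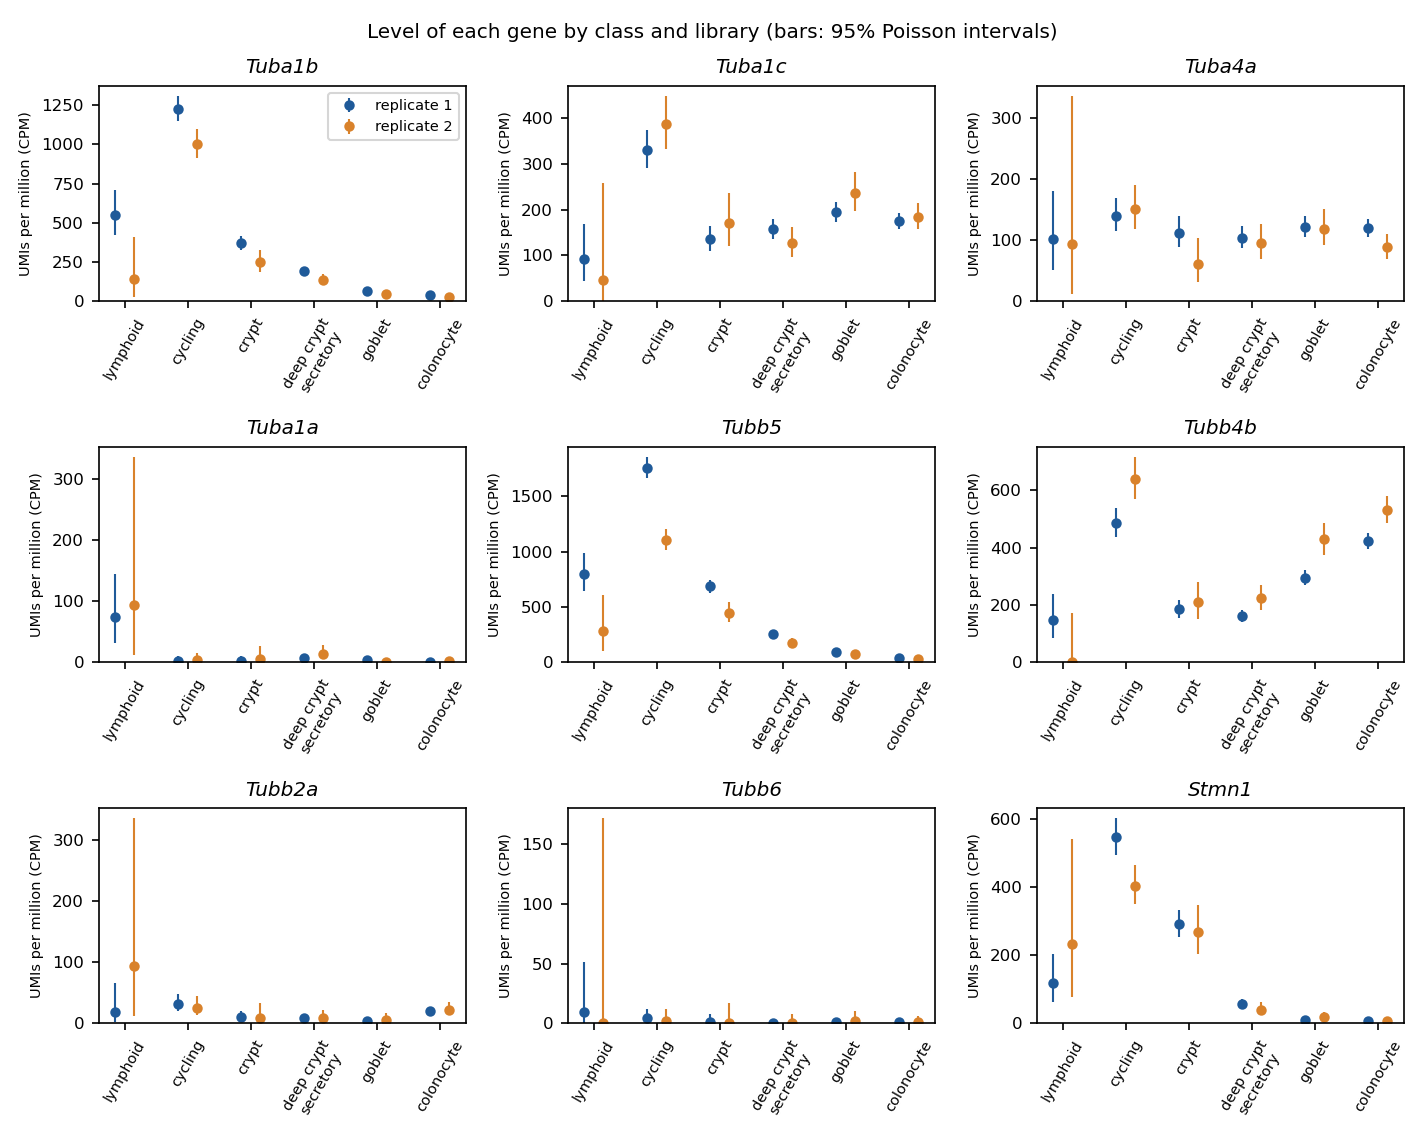
Each panel plots the level of 1 gene in CPM (linear axis from 0) in 6 classes of barcodes, with replicate 1 in blue and replicate 2 in orange and bars giving exact 95% Poisson intervals, which cover counting error only. The lymphoid-like class is shown without the doublet filter. Tuba1b, Tubb5 and Stmn1 step down from cycling-like to colonocyte-like barcodes, whereas Tubb4b is high at both ends of that order.

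The libraries differed in the same direction for 3 of the genes. Tubb4b was higher in replicate 2 than in replicate 1 in each of the 5 epithelial classes, and Tuba1b and Tubb5 were lower in replicate 2 in each of them. Mitochondrial shares were also higher in replicate 2, with medians of 6.73% in replicate 2 and 3.93% in replicate 1 in cycling-like barcodes and 11.9% and 6.09% in colonocyte-like barcodes. The part of these shares in the library difference was not tested. The fits below hold the library as a block.

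Against the mean of the other 4 epithelial classes, 6 of the 8 genes tested were higher in cycling-like barcodes and none was lower, where 12.3% of all 7784 genes tested were higher, 7.85% lower and 20.2% called in either direction (edgeR quasi-likelihood test, adjusted p under 0.05 after Benjamini-Hochberg). Stmn1 had the largest log2 fold change, 3.69 ± 0.15 (standard error, as in all that follow; adjusted p = 3.94e-32 in edgeR). Tuba1b rose by 3.23 ± 0.11 (edgeR adjusted p = 1.74e-37) and Tubb5 by 3.19 ± 0.10 (edgeR adjusted p = 1.73e-38), fitted folds of 9.41 and 9.12. The isotypes with even levels moved less, Tuba1c by 0.82 ± 0.13 and Tubb4b by 0.73 ± 0.11 (edgeR adjusted p = 4.12e-07 and 2.72e-07). Tubb2a, at 32.0 and 25.6 CPM in cycling-like barcodes, rose by 1.39 ± 0.35 (edgeR adjusted p = 1.91e-03). Tuba4a did not pass, with 0.22 (95% interval -0.10 to 0.55), nor did Tuba1a, with 0.04 (-1.02 to 1.09). Over the 8 genes the median was 1.10, and over all genes tested 0.05.

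The rises of Stmn1, Tuba1b and Tubb5 were called under every alternative that gave a test, while the smaller ones depended on the setting. At clustering resolution 0.5, where the crypt-like barcodes joined the cycling-like cluster, Tubb4b lay at 0.02 (edgeR adjusted p = 0.912) and Tuba1c at 0.28 (edgeR adjusted p = 0.0785), and at resolution 2 Tubb4b lay at 0.20 (edgeR adjusted p = 0.188). At both resolutions the reference also changed. No crypt-like class was found at 0.5, and at 2 it held 33 and 7 barcodes, too few for the fit. The reference was then the mean of the deep crypt secretory-like, goblet-like and colonocyte-like classes only. The Tubb2a call was lost at resolution 2, in DESeq2 and with sums thinned to equal depth (adjusted p = 0.0616, 0.0660 and 0.167), and in replicate 2 taken by itself Tubb2a stood at 0.85. Cycling-like barcodes also carried the highest median doublet score of the 5 classes, 0.56, against 0.25 to 0.44 in the other clusters of the 5 classes. All 8 deep crypt secretory markers had UMIs in them and summed to 4414 and 8477 CPM, against 782 and 1125 CPM in crypt-like barcodes. The part of either in these results was not tested. The 3 mast cell markers summed to 7.99 CPM (6 UMIs) in the cycling-like barcodes of replicate 1 and to 1982 CPM (930 UMIs) in those of replicate 2, against 1.86 to 7.61 CPM in the other epithelial classes. Of the 930 UMIs, 929 lay in 1 barcode with 4492 UMIs. Without that barcode the same number of genes, 6 of the 8, were called, with Stmn1 at 3.70, Tuba1b at 3.25 and Tubb5 at 3.20.

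**Figure D2:**
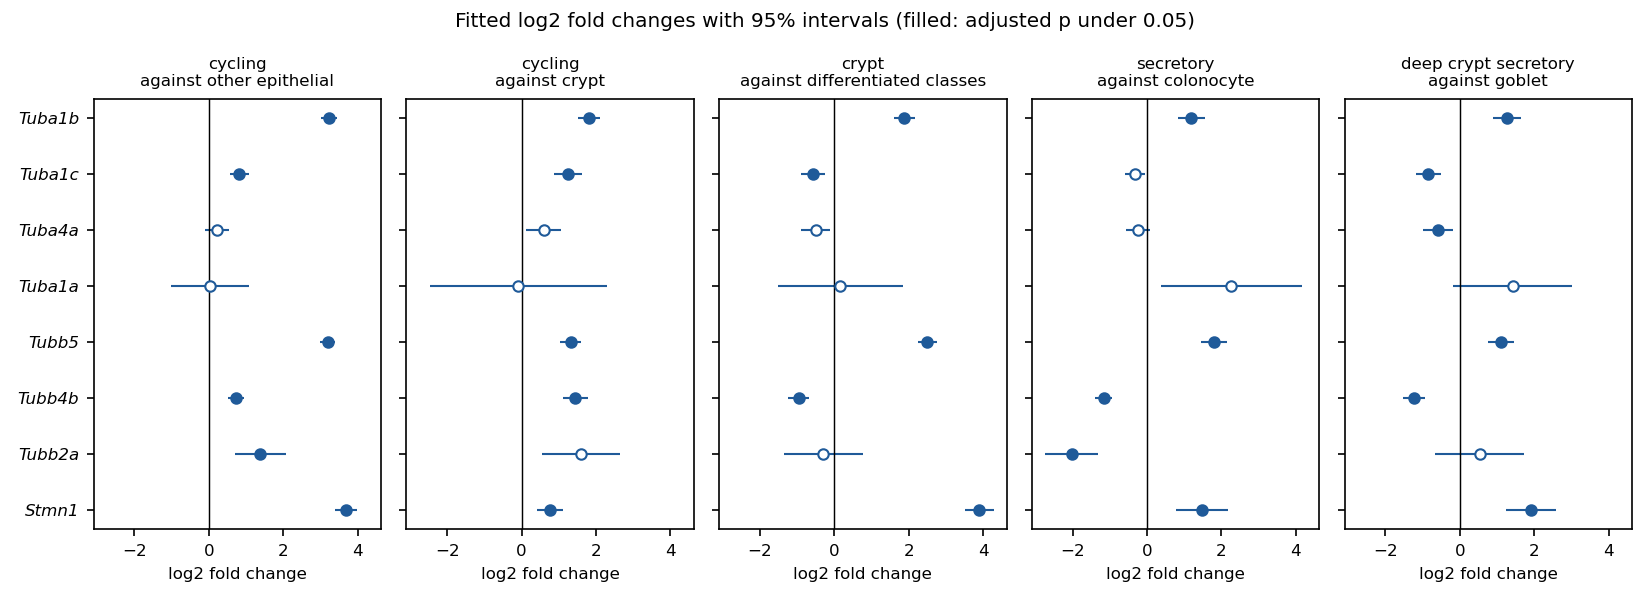
Points give the fitted log2 fold change (x axis) of 8 genes (rows) in 5 comparisons between epithelial classes, with 95% intervals from edgeR. Filled points had an adjusted p under 0.05. Tuba1b, Tubb5 and Stmn1 lie right of 0 in all 5 panels, and Tubb4b lies right of 0 in the panels led by cycling-like barcodes and left of 0 in the other 3.

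Cycling-like barcodes were then set against crypt-like ones. Of the 8 genes, 5 were higher and none lower, where 2.58% of all genes tested were higher, 1.16% lower and 3.74% called in either direction. Tuba1b rose by 1.82 ± 0.15, Tubb4b by 1.45 ± 0.17, Tubb5 by 1.32 ± 0.14 and Tuba1c by 1.25 ± 0.19 (edgeR adjusted p = 1.04e-14, 6.57e-10, 4.16e-11 and 1.06e-06). Stmn1, the gene with the largest difference to the epithelium as a whole, had the smallest called one here, 0.77 ± 0.18 (edgeR adjusted p = 2.97e-03), and its call was lost without the replicate block (adjusted p = 0.493) and in DESeq2 (adjusted p = 0.148). Without the replicate block Tubb5 stood at 1.31 with an edgeR adjusted p = 0.0519. Tubb2a (1.60, 95% interval 0.56 to 2.65) and Tuba4a (0.59, 0.13 to 1.05) did not pass after adjustment over all genes, and Tuba1a lay at -0.08 (-2.47 to 2.30). The 2 comparisons share the cycling-like sums.

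The same barcodes were ordered by how many of the 12 cycling markers in the files had a UMI after each barcode was thinned to 3000 UMIs. Thinning served only to count markers, and the levels below come from all UMIs of a bin. Of 255 and 81 crypt-like and cycling-like barcodes, 42 and 6 were too shallow and were left out. Bins were set at 0, 1 to 2, 3 to 5 and 6 or more markers. In that order, 1 of 22, 3 of 52, 33 of 66 and 65 of 73 barcodes were cycling-like in replicate 1. In replicate 2, 1 of 5, 2 of 14, 17 of 25 and 31 of 31 were. These markers also named the cycling-like cluster, so the bins largely repeat the comparison of cycling-like with crypt-like barcodes. Tuba1b stood at 182 CPM in replicate 1 with 0 markers (22 barcodes), 365 CPM with 1 to 2, 786 CPM with 3 to 5 and 1270 CPM with 6 or more (73 barcodes). In replicate 2 its levels were 117 CPM (5 barcodes), 410 CPM (14 barcodes), 769 CPM and 1030 CPM (31 barcodes). Every step was upward in both libraries, also without the bins of 5 and 14 barcodes. Tubb5 had 336, 767, 1221 and 1787 CPM in replicate 1. In replicate 2 it had 93.7, 432, 1091 and 1122 CPM. Its last step in replicate 2 was within counting error, with intervals of 952 to 1245 CPM and 1004 to 1251 CPM.

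Tubb4b was also higher at every step, with 21.0, 167, 317 and 552 CPM in replicate 1. Its levels in replicate 2 were 117, 223, 516 and 690 CPM. There the counting intervals overlapped at the first step (38.0 to 273 CPM and 151 to 319 CPM). They also overlapped at the last step (421 to 625 CPM and 598 to 792 CPM). Stmn1 took most of its difference between 0 and 1 to 2 markers, at 161 and 365 CPM in replicate 1 and at 70.3 and 372 CPM in replicate 2, and then stood at 414 and 535 CPM in replicate 1 and at 367 and 398 CPM in replicate 2 in the upper bins. In replicate 2, without its bins of 5 and 14 barcodes, 2 levels of Stmn1 remain and their counting intervals overlap. Tuba4a showed no common order, with 62.9, 131, 133 and 144 CPM in replicate 1, while replicate 2 gave 141, 44.7, 139 and 151 CPM. Among the β genes the share of Tubb4b in replicate 1 was 5.77% with 0 markers (3 of 52 UMIs, 95% exact binomial interval 1.21% to 15.9%) and 17.7%, 20.2% and 23.3% in the bins above. In replicate 2 the bin with 0 markers held 9 β UMIs, and the bins above had 33.7%, 31.6% and 37.4%. The bins are ranges of a marker count and not cell types.

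**Figure D3:**
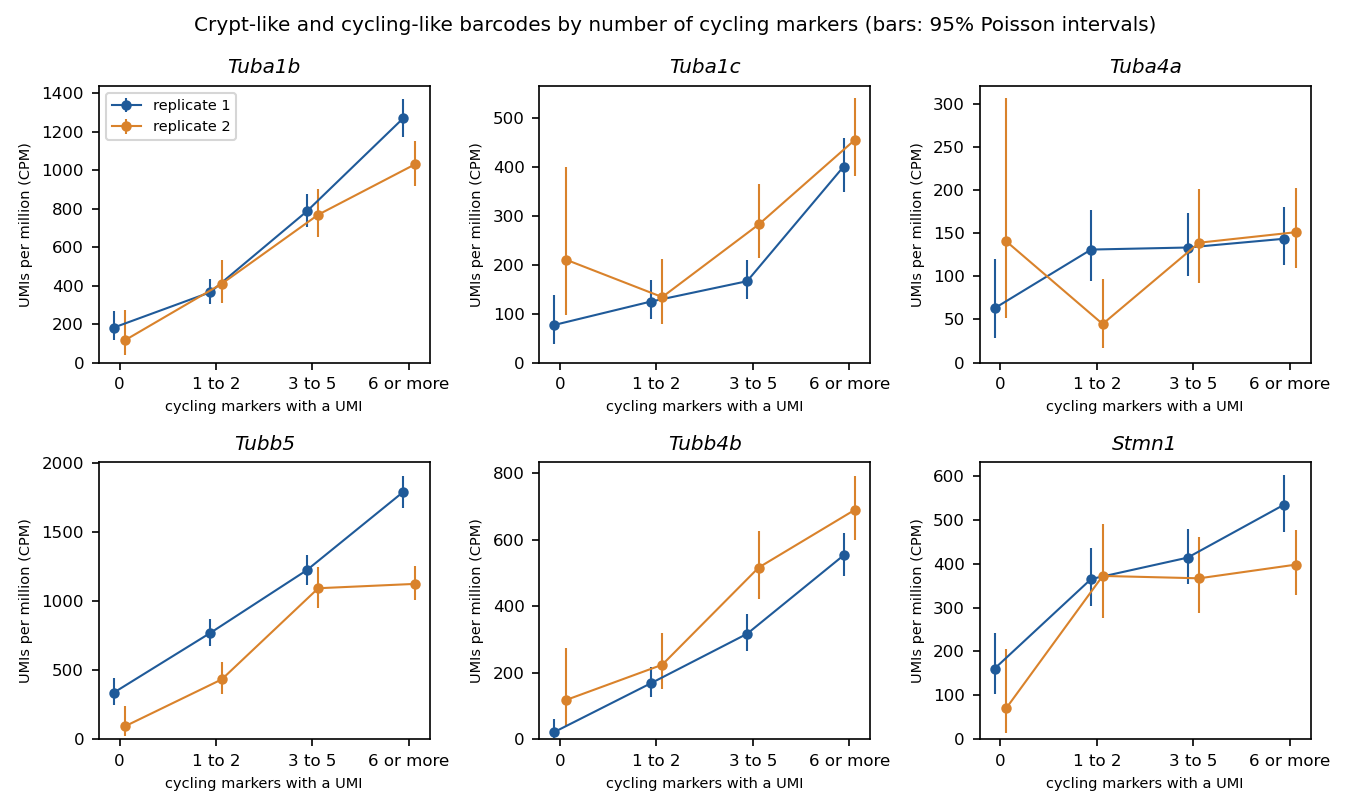
Each panel plots the level of 1 gene in CPM against the number of cycling markers with a UMI (4 bins, low to high) in crypt-like and cycling-like barcodes, with exact 95% Poisson intervals for replicate 1 (blue) and replicate 2 (orange). Tuba1b and Tubb4b climb at each step in both libraries, though the Tubb4b intervals overlap at the first and last steps of replicate 2. Stmn1 changes most between the bins of 0 and of 1 to 2 markers.

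Crypt-like barcodes were compared with the mean of the deep crypt secretory-like, goblet-like and colonocyte-like classes. Of the 8 genes, 3 were higher and 2 lower, where 20.5% of all genes tested were called, 10.6% higher and 9.83% lower. Stmn1 was higher by 3.89 ± 0.20, Tubb5 by 2.50 ± 0.13 and Tuba1b by 1.89 ± 0.15 (edgeR adjusted p = 4.64e-27, 1.53e-26 and 1.18e-17). Tubb4b fell by 0.96 ± 0.15 and Tuba1c by 0.58 ± 0.17 on the log2 scale (edgeR adjusted p = 2.25e-07 and 7.15e-03). The call of Tuba1c was lost without the replicate block (adjusted p = 0.209) and with thinned sums (adjusted p = 0.310), while Tuba4a, at -0.49 (95% interval -0.88 to -0.11), passed with thinned sums (-1.09, edgeR adjusted p = 3.50e-03) and with RLE size factors (-0.54, edgeR adjusted p = 0.0409). In replicate 2 taken by itself Stmn1 stood at 3.23. With each barcode thinned to 1000 UMIs, Stmn1 was found in 40.9% and 28.8% of cycling-like barcodes, 23.4% and 17.2% of crypt-like barcodes and 0.985% and 0% of colonocyte-like barcodes. The 0 of 130 allows up to 2.31% of barcodes with a UMI at that thinned depth, and limits no share of barcodes expressing the gene. Unthinned, at median depths of 6760 and 8801.5 UMIs in cycling-like, 4840 and 6482 UMIs in crypt-like and 5200.5 and 6409.5 UMIs in colonocyte-like barcodes, the shares were 89.1% and 88.5%, 61.4% and 58.6%, and 3.20% and 3.85%.

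Secretory-like barcodes, the mean of the deep crypt secretory-like and goblet-like classes, were set against colonocyte-like ones. Of the 8 genes, 3 were higher and 2 lower, where 36.8% of all genes tested were called, 17% higher and 19.7% lower, the largest share of the 5 comparisons between epithelial classes. Tubb5 was higher by 1.81 ± 0.18, Stmn1 by 1.48 ± 0.36 and Tuba1b by 1.19 ± 0.18 (edgeR adjusted p = 7.30e-14, 4.45e-04 and 9.22e-08). Tubb4b fell by 1.17 ± 0.12 and Tubb2a by 2.02 ± 0.37 (edgeR adjusted p = 1.04e-13 and 3.89e-06). The Stmn1 call was lost with sums thinned to equal depth, where it lay at 0.90 (edgeR adjusted p = 0.548).

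Tubb2a was spread unevenly over the 2 colonocyte-like clusters. It stood at 32.7 and 33.6 CPM in the cluster led by Emp1 (40 and 14 UMIs), against 5.02 and 12.2 CPM in the cluster led by Fabp6 (5 and 6 UMIs), 8.37 and 8.43 CPM in deep crypt secretory-like barcodes and 4.26 and 5.57 CPM in goblet-like ones. The Emp1-led cluster was thus level with cycling-like barcodes for this isotype, and the ranges of the 2 colonocyte-like clusters did not overlap. Tubb4b, by contrast, stood at 411 and 538 CPM in the Emp1-led cluster and 436 and 526 CPM in the Fabp6-led cluster. Differences between clusters of 1 class were not tested.

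Within the secretory lineage, deep crypt secretory-like barcodes, the cluster led by Reg4, were compared with goblet-like ones. Reg4 had a UMI in 82.0% and 82.1% of the former and also in 62.9% and 55.6% of the latter. Position in the crypt was not measured. Of the 8 genes, 3 were higher and 3 lower, where 13.5% of all genes tested were called, 6.21% higher and 7.3% lower. Stmn1 was higher by 1.91 ± 0.34, Tuba1b by 1.26 ± 0.19 and Tubb5 by 1.11 ± 0.18 (edgeR adjusted p = 1.10e-05, 3.66e-07 and 8.43e-07). Tubb4b fell by 1.23 ± 0.15, Tuba1c by 0.85 ± 0.17 and Tuba4a by 0.58 ± 0.20 (edgeR adjusted p = 1.38e-09, 1.09e-04 and 0.0477). The cycling marker list, with UMIs of all 12 markers in deep crypt secretory-like barcodes, summed to 490 and 337 CPM there and to 136 and 141 CPM in goblet-like barcodes, where 12 and 11 markers had UMIs. Its part in these results was not tested.

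Several calls of this comparison were fragile. Without the replicate block those of Tubb5, Tuba1c and Tuba4a were lost (edgeR adjusted p = 0.0968, 0.0993 and 0.441). With thinned sums those of Tuba1b, Tuba1c and Tuba4a were lost (edgeR adjusted p = 0.137, 0.140 and 0.475), and Tuba4a was also lost in 4 other settings. Stmn1, at 7.91 and 18.6 CPM in goblet-like barcodes, stood at 0.69 in replicate 2 taken by itself. The 2 goblet-like clusters differed among themselves, without a test. Tuba1b had 28.4 and 43.6 CPM in the cluster led by Clca1, against 93.6 and 46.0 CPM in the cluster led by Scin, and Tubb5 had 58.3 and 65.4 CPM against 118 and 78.2 CPM. The Scin-led cluster was the nearer to deep crypt secretory-like barcodes in both genes, by little in replicate 2.

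These levels gave each class its own mix of isotypes. The 4 α genes together had 1699 and 1545 CPM in cycling-like barcodes, 620 and 488 CPM in crypt-like, 463 and 371 CPM in deep crypt secretory-like, 384 and 401 CPM in goblet-like and 335 and 301 CPM in colonocyte-like barcodes. Tuba1b made up 72.2% and 64.8% of α UMIs in cycling-like barcodes, 59.7% and 51.4% in crypt-like, 42.1% and 36.9% in deep crypt secretory-like, 17.1% and 11.1% in goblet-like and 12.2% and 8.76% in colonocyte-like barcodes. Its share was thus lower at each step of this order in both libraries, without overlap of the classes except between goblet-like and colonocyte-like barcodes. Tuba1c was the leading α isotype of goblet-like and colonocyte-like barcodes, with 50.6% and 59.3% in goblet-like and 52.2% and 61.3% in colonocyte-like barcodes, and Tuba4a made up 31.5% and 29.6% in goblet-like and 35.6% and 29.2% in colonocyte-like barcodes. In cycling-like barcodes Tuba4a made up 8.24% and 9.79%, although its level was highest there.

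Among the β genes, Tubb5 led in cycling-like and crypt-like barcodes and Tubb4b in goblet-like and colonocyte-like ones. Tubb5 made up 77.1% and 62.4% of β UMIs in cycling-like barcodes, 77.8% and 67.1% in crypt-like, 60.3% and 43.0% in deep crypt secretory-like, 23.6% and 13.9% in goblet-like and 7.26% and 4.73% in colonocyte-like barcodes. Its share in cycling-like and crypt-like barcodes overlapped, although its level in the cycling-like class was higher. Tubb4b made up 88.3% and 91.3% in colonocyte-like barcodes, 75.0% and 84.6% in goblet-like and 37.7% and 54.9% in deep crypt secretory-like barcodes, against 21.3% and 36.0% in cycling-like barcodes. The β genes together had 2277 and 1776 CPM in cycling-like barcodes and 478 and 582 CPM in colonocyte-like barcodes, a smaller difference than that of Tubb5, since Tubb4b stayed high. Exact 95% binomial intervals were 75.1% to 79.1% and 59.0% to 65.7% for Tubb5 in cycling-like barcodes and 5.77% to 8.98% and 3.08% to 6.90% in colonocyte-like barcodes. The crypt-like shares moved most with the clustering: without the doublet filter, where that class held 208 and 69 barcodes, they averaged 52.7% for Tubb5 and 45.4% for Tuba1b, and at resolution 2 they averaged 84.4% and 70.8%, against 72.4% and 55.6% here. Without the doublet filter the crypt-like class was led by Aqp4 and Reg3b, and no separate unnamed cluster led by Aqp4 was found. Here a cluster led by Aqp4 (152 and 52 barcodes) took no name and is described below, so the class did not hold the same kind of barcodes in both settings.

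**Figure D4:**
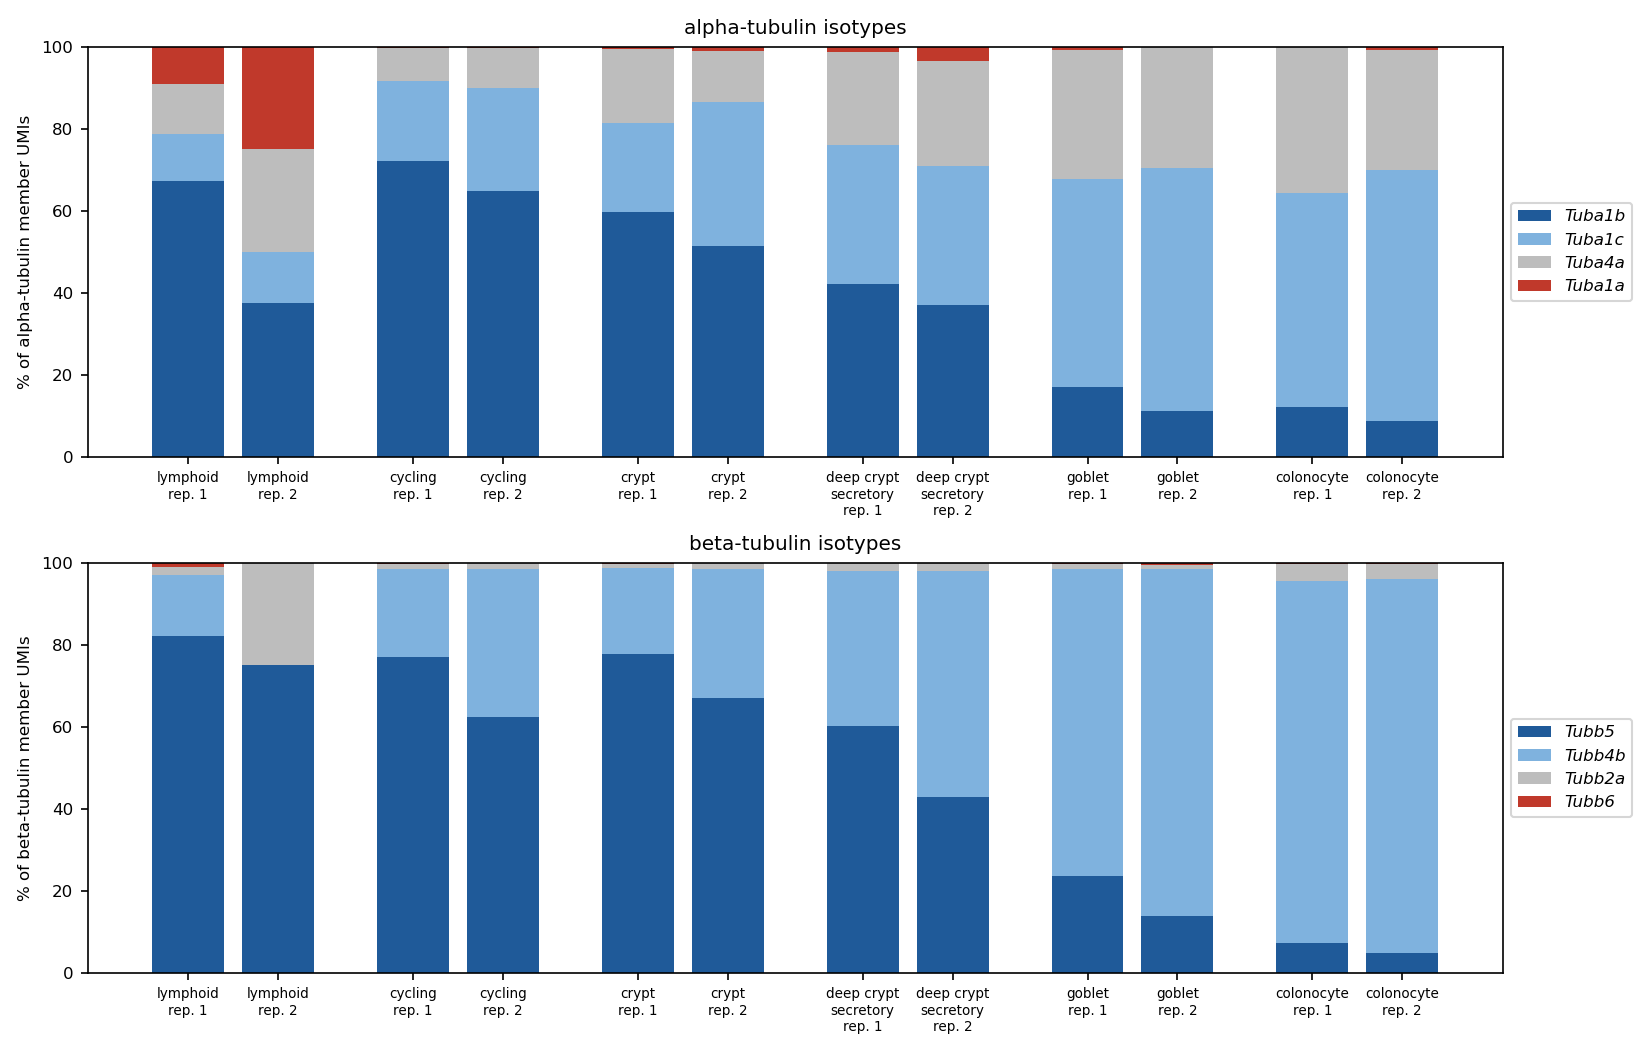
Stacked bars give the share of each gene among the UMIs of the 4 α-tubulin genes (top) and the 4 β-tubulin genes (bottom), in percent, for 6 classes and both libraries. Tuba1b is at 12.2% and 8.76% and Tubb5 at 7.26% and 4.73% in colonocyte-like barcodes, and the lymphoid-like bars, taken without the doublet filter, rest on 8 α and 8 β UMIs in replicate 2.

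The lymphoid-like cluster held 3 barcodes in replicate 2 after the doublet filter, so the comparison was made without that filter, on 58 and 10 barcodes with 108633 and 21480 UMIs. The class was not alike in the libraries. T cell markers summed to 22811 and 19553 CPM with all 11 detected in each, whereas B and plasma cell markers summed to 49525 CPM (5380 UMIs, 7 of 7 detected) in replicate 1 and to 93.1 CPM (2 UMIs, 1 of 7 detected) in replicate 2. Of the 5380 UMIs, 5360 lay in 3 barcodes. Tuba1b had 552 and 140 CPM in lymphoid-like barcodes (60 and 3 UMIs) and Tubb5 801 and 279 CPM (87 and 6 UMIs). Tubb4b had 147 and 0 CPM (16 and 0 UMIs, where 3 UMIs would be 140 CPM in replicate 2), and Tuba1c 92.1 and 46.6 CPM (10 and 1 UMIs). In replicate 1 Tuba1b made up 67.4% of α UMIs and Tubb5 82.1% of β UMIs. These shares, on 60 and 87 UMIs, were near those of crypt-like and cycling-like barcodes, and no order of the classes is read from them.

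Against the mean of the 5 epithelial classes, 3 of the 8 genes were higher and 2 lower in lymphoid-like barcodes, where 13.7% of 8281 genes tested were called, 4.11% higher and 9.59% lower. The crypt-like class in that mean was the one found without the doublet filter, led by Aqp4 and Reg3b. The median of all genes in this comparison was -0.81 on the log2 scale. It moved with the settings, from -1.32 with no filter on low counts to -0.17 in DESeq2, and the values below carry no offset for it. Tubb5 lay at 1.07 ± 0.22 and Tuba1b at 0.95 ± 0.25 (edgeR adjusted p = 3.67e-05 and 2.47e-03), and both rest on replicate 1: in replicate 2 taken by itself Tubb5 stood at -0.36 and Tuba1b at -1.02, and the Tuba1b call was lost without the replicate block (adjusted p = 0.0750). Tubb4b fell by 2.00 ± 0.34 and Tuba1c by 1.78 ± 0.40 (edgeR adjusted p = 1.46e-07 and 1.84e-04), in the same direction in both libraries. In replicate 1 taken by itself they stood at -1.50 and -1.54, and replicate 2 had 0 and 1 UMIs of them. Stmn1, with 120 and 233 CPM, did not pass, at 0.80 (95% interval -0.02 to 1.61). Without the 3 barcodes rich in plasma cell markers the same number of genes, 5, were called, with Tubb5 at 1.14, Tuba1b at 1.01, Tubb4b at -2.09 and Tuba1c at -1.68. The cycling markers summed to 1224 CPM in the lymphoid-like barcodes of replicate 1, with 11 of 12 markers detected and Cenpf at 0, and to 279 CPM in those of replicate 2, with 3 of 12 detected. Goblet markers summed to 7696 and 6471 CPM in lymphoid-like barcodes and to 171935 and 151082 CPM in goblet-like ones, and the cluster's median doublet score was 0.58. The part of the cycling and goblet markers and of the doublet score in the result was not tested.

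Tuba1a was the third gene called higher in lymphoid-like barcodes (edgeR adjusted p = 4.17e-07). It had 8 and 2 UMIs there, or 73.6 and 93.1 CPM, against 17 and 11 UMIs, or 2.14 and 3.41 CPM, in all 5 epithelial classes together. The pooled ratio was 30.7 (95% exact interval 13.3 to 65.0, counting error only). No epithelial class exceeded the 12.6 CPM of deep crypt secretory-like barcodes in replicate 2, where 2.99% of 67 barcodes had a UMI. The difference between secretory-like and colonocyte-like barcodes, 2.27 (95% interval 0.37 to 4.17), did not pass in the fit, with an edgeR adjusted p = 0.0585, but passed in 4 of the other settings. It rests on few barcodes. A UMI was found in 2.86% and 2.99% of deep crypt secretory-like, 1.32% and 0% of goblet-like and 0% and 0.769% of colonocyte-like barcodes.

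The highest Tuba1a level was in tuft-like barcodes, chemosensory epithelial cells that carry an apical tuft with a core of actin and microtubule bundles. Of all 77 Tuba1a UMIs, 38 lay in the 12 tuft-like barcodes, 24 in replicate 1 and 14 in replicate 2. That is 1458 CPM (95% Poisson interval 934 to 2170) in 9 barcodes and 1149 CPM (628 to 1927) in 3 barcodes. The pooled ratio to the 5 epithelial classes was 439 (263 to 743). At least 1 UMI was found in 6 of 9 and 3 of 3 tuft-like barcodes, with median depths of 1396 and 5151 UMIs, against 0 of 406 and 1 of 130 colonocyte-like barcodes, with median depths of 5200.5 and 6409.5 UMIs. The 0 of 406 allows up to 0.739% of colonocyte-like barcodes with a UMI at this depth, which is no limit on barcodes expressing the gene. The single barcode with the most, 8 UMIs, had 1001 UMIs in all.

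The barcodes were also grouped by the number of tuft markers with a UMI, which is not independent of the cluster. Barcodes with UMIs of at least 5 of the 9 tuft markers had Tuba1a at 720 and 515 CPM (8 and 5 barcodes, 15 and 17 UMIs), of which 6 and 3 were tuft-like, lower levels than those of the cluster. Barcodes with 2 to 4 markers had 23.8 and 2.31 CPM, those with 1 marker 2.34 and 4.85 CPM and those with 0 markers 2.07 and 1.24 CPM (1195 and 373 barcodes). Tuba1a made up 70.6% and 82.4% of the α UMIs of tuft-like barcodes, the largest share of any class in each library. The other genes of this class were too sparse for an order: Tubb4b had 608 and 1477 CPM (10 and 18 UMIs), and Tubb5 1154 and 164 CPM (19 and 2 UMIs), so that the leading β gene differed between the libraries. The cluster's median doublet score was 0.72, and goblet markers summed to 7048 and 3528 CPM in it. Enteroendocrine markers summed to 1519 CPM in the tuft-like barcodes of replicate 1 (25 UMIs, 4 of 9 detected) and to 0 in those of replicate 2 (0 of 9), against 13.9 to 143 CPM in the 5 epithelial classes. The part of these in the Tuba1a level was not tested. With 9 and 3 barcodes the tuft-like class entered no fit.

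**Figure D5:**
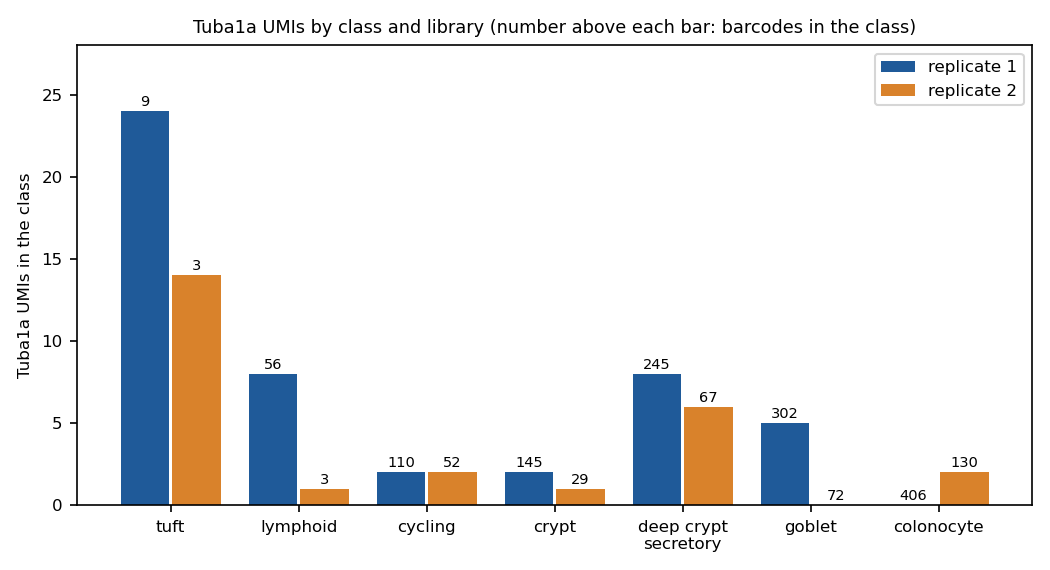
Bars give the number of Tuba1a UMIs (y axis) in each class for replicate 1 (blue) and replicate 2 (orange), and the number above each bar is the number of barcodes in that class. The 9 and 3 tuft-like barcodes hold 24 and 14 UMIs, more than any other class in either library.

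Tubb6 had 10 UMIs in replicate 1 and 8 in replicate 2. Cycling-like barcodes held 3 and 1 of these UMIs, and no deep crypt secretory-like barcode had any, which at 3 UMIs allows up to 2.28 and 6.32 CPM. At this depth no difference between classes was detectable for it.

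Other tubulin and stathmin genes were far rarer than the 6 main ones, and 6 of 15 could be tested between epithelial classes. Tubal3, an α-tubulin-like gene, had 14.9 and 16.5 CPM in colonocyte-like barcodes and 14.9 and 27.9 CPM in crypt-like ones. In deep crypt secretory-like barcodes it had 2.28 and 4.21 CPM. Its 1.33 and 2.13 CPM in cycling-like and 0.608 and 3.71 CPM in goblet-like barcodes lay below the floor of 3 UMIs in each library. It fell by 3.13 ± 0.50 in secretory-like barcodes against colonocyte-like ones (edgeR adjusted p = 2.51e-07) and by 3.43 ± 0.86 in cycling-like barcodes against crypt-like ones (edgeR adjusted p = 6.66e-03), and it was higher in crypt-like barcodes than in the mean of the 3 differentiated classes, by 1.86 ± 0.54 (edgeR adjusted p = 7.31e-03). Within colonocyte-like barcodes it stood at 22.0 and 21.6 CPM in the Emp1-led cluster and 6.02 and 12.2 CPM in the Fabp6-led cluster, the same order as Tubb2a. Tubg1, the γ-tubulin gene of microtubule nucleation, rose by 1.32 ± 0.44 and Tube1, the centriolar ε-tubulin gene, by 1.13 ± 0.33 in cycling-like barcodes against the other 4 classes (edgeR adjusted p = 0.0220 and 8.45e-03). Tube1 was as high in crypt-like barcodes (24.3 and 46.5 CPM) as in cycling-like ones (30.6 and 34.1 CPM). Stmn2 (-0.66 ± 0.53) and Stmn4 (0.11 ± 0.45), best known from neurons, did not pass in cycling-like barcodes, nor did Tubd1 (-1.93 ± 1.23). In lymphoid-like barcodes Tubb2b was called from 9 UMIs in replicate 1 and 0 in replicate 2.

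Genes that fold tubulin, handle microtubule ends or build the spindle were read beside the isotypes, from lists chosen with results of these data known. The shares of all genes called in the same comparisons were 20.2% for cycling-like against the other 4 classes, 3.74% for cycling-like against crypt-like, 20.5% for crypt-like against differentiated, 13.5% for deep crypt secretory-like against goblet-like and 36.8% for secretory-like against colonocyte-like barcodes. Of 21 spindle genes tested, all 21 rose in cycling-like barcodes against the other 4 classes, with a median of 3.45, and all 21 rose against crypt-like barcodes, with a median of 2.29. The cycling-like class was named from markers of dividing cells, so this rise follows from the naming and is no separate result. Nusap1 (4.25 ± 0.26), Ckap2l (4.05 ± 0.28) and the spindle motor gene Kif11 (3.82 ± 0.28) had the largest values in the first comparison. In crypt-like barcodes against the differentiated classes 9 of the 21 rose and none fell. Of 22 genes of tubulin folding, which code for the chaperonin CCT, prefoldin and tubulin cofactors, 11 rose and none fell in cycling-like barcodes, with a median of 0.62 against 0.05 for all genes, and Pfdn4 (1.27 ± 0.29), Tcp1 (1.22 ± 0.14) and Pfdn6 (1.20 ± 0.23) led. None of these 22 passed between cycling-like and crypt-like barcodes. In crypt-like against differentiated barcodes 11 rose and none fell, led by Cct5 (1.66 ± 0.19), and in deep crypt secretory-like against goblet-like barcodes 9 rose and none fell. In secretory-like against colonocyte-like barcodes 10 rose and 1, the tubulin cofactor gene Tbcb (-0.72 ± 0.19), fell.

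The remaining lists had calls in both directions or few calls. Of 25 genes of microtubule nucleation, ends and interphase binding, 5 rose and 3 fell in cycling-like barcodes against the other 4 classes. Tubgcp2 (1.67 ± 0.40), a γ-tubulin complex gene, Ckap5 (1.40 ± 0.25), a microtubule polymerase gene, and Nedd1 (1.25 ± 0.29) were among the 5, and Map1lc3a (-1.82 ± 0.41), better known from autophagy, among the 3. In secretory-like against colonocyte-like barcodes 5 rose and 7 fell, and 36.8% of all genes were called in that comparison. Clasp2 (1.69 ± 0.68), Tubgcp3 (1.06 ± 0.36) and Mzt1 (0.88 ± 0.27) were among the 5. Map4 (-2.24 ± 0.22), Mapre3 (-2.23 ± 0.46) and Map7d1 (-1.79 ± 0.44) were among the 7. Of 16 tubulin modification genes tested, none was called in edgeR between cycling-like and other epithelial barcodes, nor between deep crypt secretory-like and goblet-like ones. In crypt-like against differentiated barcodes 2 rose, Tpgs2 (1.47 ± 0.47) and Ttll12 (1.11 ± 0.40), and Svbp (-0.87 ± 0.31), a partner of the vasohibin detyrosinases, fell. These 3 of 16 are near the 20.5% of all genes called, and nothing is read from them. Ttll12 (-1.30 ± 0.37) and Ttll3 (-1.17 ± 0.37) fell in secretory-like against colonocyte-like barcodes, 2 of 16 in a comparison where 36.8% of all genes were called.

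Across the 10 sums of the 5 epithelial classes in both libraries, Tuba1b and Tubb5 ran together, with a Pearson correlation of log2(CPM + 10) of 0.99, and Stmn1 correlated with Tubb5 at 0.97 and with Tuba1b at 0.95. Tubb4b correlated with Tubb5 at -0.10 and with Tuba1c at 0.78. Among all other tested genes, those most like Tubb5 were Stip1 (1.00) and Hsp90aa1 (0.99), both of the Hsp90 chaperone system, and those most like Stmn1 were Cenpw, Rfc5 and Ppp5c (0.99 each). The genes most like Tuba1c (Sgol1, Ly6g6d and Kif18b) reached 0.88 to 0.92 and those most like Tubb4b (Irgm1, Nr1i3 and Olfr813) 0.81 to 0.90. The 10 points come from 2 libraries and share their depth and class structure, so these are descriptions.

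The unnamed clusters were not compared. In the one led by Aqp4 (152 and 52 barcodes) Tubb4b stood at 384 and 397 CPM, Tubb5 at 54.8 and 48.6 CPM and Tuba1b at 54.8 and 70.1 CPM, with Tubb4b at 86.9% and 87.5% of β UMIs, near the shares of colonocyte-like barcodes. Tubb2a differed from the Emp1-led cluster there, with 1 and 0 UMIs. In the cluster led by Olfr1121 (150 and 161 barcodes), whose median depth was 1563 UMIs, Tubb5 made up 46.6% and 32.9% of β UMIs and Stmn1 stood at 63.3 and 127 CPM, between the levels of deep crypt secretory-like and crypt-like barcodes.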

How the data were processed

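UMI counts per gene and barcode, raw and not normalised, were used as deposited by the authors. GRCh38 and GRCm38 are named in the submitters' processing notes. For the aligner, the barcode filter and reads that match several genes, the method is not given in the sources used here. The 9 genes and all gene and marker lists were chosen with earlier results of these data known.

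A minimum of 500 UMIs and 250 genes removed no barcode, and no barcode had identical counts in both libraries. Barcodes were scored against simulated doublets (2 pairs per barcode, 50 neighbours), and the top 5% of each library, 87 and 34 barcodes, were left out. Genes were split by a hash of their name into 12745 clustering genes, which include the markers, and 12759 readout genes, which include the 9 genes and every listed gene. The 1500 most variable clustering genes gave 30 principal components, a shared-neighbour graph (15 neighbours) and Leiden clusters at resolution 1 (igraph 0.11.9, leidenalg 0.10.2). A cluster could take a class name if its marker score, the mean log2(CPM + 10) of the markers minus their mean over clusters, was at least 0.75, at least 3 markers had UMIs in 10% of its barcodes, and its 15 leading genes held a marker of that class and no more of any other. Among such names it took the one whose score was highest relative to the top score of that list over all clusters. Of 127 markers listed 125 were in the files, and of 101 listed pathway genes 100.

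UMIs were summed per class and library, for classes with at least 10 barcodes in each library, into 10 sums of 215164 to 2221097 UMIs. Readout genes with at least 20 UMIs (7784) were tested by edgeR 4.0.16 in R 4.3.3, with the quasi-likelihood test, TMM factors, the library as a block and Benjamini-Hochberg adjustment, leaving 4 residual degrees of freedom. Every class comes from both libraries, so the block follows from how the sums are made. The lymphoid-like comparison was planned in the same fit. It could not be fitted there and was made without the doublet filter on 12 sums and 8281 genes, a choice made after seeing the clusters. The fit was also run on counts simulated with the same spread for all genes and no library effect. That run does not test the spread between the libraries of these data. CPM carries exact Poisson 95% intervals and shares exact Clopper-Pearson ones, for counting error only. A floor is 3 counts. Named genes were all 9 and, per list and comparison, up to 3 called genes at either end of the log2 fold changes. The text prints some of these, and for likeness some of the 3 genes ranked closest to each. Alternatives were RLE factors, DESeq2 1.42.0, no filter on low counts, thinned sums, no block, no doublet filter, resolutions 0.5 and 2, a mitochondrial filter at 20%, each library by itself and, chosen after seeing the data, the Aqp4-led cluster counted as colonocyte-like and the leaving out of barcodes with at least 10 UMIs of mast markers (cycling-like class) or of B and plasma cell markers (lymphoid-like class).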

Additional observations from a re-analysis of the deposited data

How the results depend on the processing

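Of 435 results for single genes under alternative settings that gave a test, 403 kept their side of the threshold, 23 lost the call and 9 gained it. Of the 403, 10 that passed neither here nor in the alternative changed sign (Tuba1a in 6, Tuba4a in 3 and Tubb2a in 1), and no called value did. Counts of genes called moved by more than 1.5 times as follows. For crypt-like against differentiated barcodes (1593 called) they were 1047 in DESeq2, 893 without the replicate block and 956 with thinned sums. For cycling-like against crypt-like barcodes (291) they were 165 in DESeq2, 856 without the doublet filter, 103 without the replicate block and 183 with thinned sums. For cycling-like against other epithelial barcodes (1572) they were 983 in DESeq2, 855 without the replicate block and 875 with thinned sums. For deep crypt secretory-like against goblet-like barcodes (1051) they were 587 in DESeq2, 385 without the replicate block and 469 with thinned sums. For secretory-like against colonocyte-like barcodes (2863) they were 1886 in DESeq2 and 1349 with thinned sums. Of the 9 genes, 3 instead of 5 were called between cycling-like and crypt-like barcodes without the replicate block, and between deep crypt secretory-like and goblet-like barcodes 3 instead of 6 both without the block and with thinned sums. Thinned sums hold fewer UMIs and 5010 genes, and Tuba1a was not tested in them. For the other changes the cause was not tested. In crypt-like barcodes the Tuba1b share of α UMIs was 45.4% without the doublet filter and 70.8% at resolution 2, and the Tubb5 share of β UMIs 52.7% and 84.4%. Without the doublet filter that class was led by Aqp4 and Reg3b, and no separate unnamed Aqp4-led cluster was found. With each library by itself, where values have no test, the lymphoid-like difference ranged from -1.02 to 1.17 for Tuba1b and from -0.36 to 1.25 for Tubb5. The median of all genes in the lymphoid-like comparison, -0.81 here, was -0.68 with RLE factors, -0.17 in DESeq2, -0.51 with thinned sums and -1.32 with no filter on low counts, and Tuba1b, Tubb5 and Tuba1a stayed above 0 and Tubb4b and Tuba1c below it in each. That of secretory-like against colonocyte-like barcodes was 0.15 with thinned sums, against -0.02. Crypt-like comparisons could not be fitted at resolutions 0.5 and 2 or with the mitochondrial filter, nor the lymphoid-like one, since too few barcodes of the class, or none, were left in a library. At those settings the reference for cycling-like barcodes also held no crypt-like sum. Depth limits Tubb6, Tuba1a and Tubb2a most.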
